A study of Rattus norvegicus with 30 samples.

Results

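The genes described here are 9 interferon-stimulated genes of the rat: Irf7 (Entrez Gene 293624), Oas1a (192281), Oas1b (246268), Mx1 (24575), Mx2 (286918), Isg15 (298693), Ifit3 (309526), Rsad2 (65190) and Ifi27l2b (299269). They were taken by symbol from the 17322 genes of the deposited table, and all 9 have a row. They were chosen because Irf7, Oas1b and Ifi27l2b were already known to rise late in culture. Their values in late culture are therefore given as a description, with no test. RNA was measured in testes of Wistar Han rats taken at 8.5, 14.5, 24.5, 30.5, 36.5 or 53.5 days postpartum (dpp), and in fragments of 8.5 dpp testes kept on agarose for 6 days (D6), 16 days (D16), 22 days (D22) or 28 days (D28). The animals carried no transgene that the labels name, and the culture medium was αMEM with Knock-out serum replacement, retinol and vitamin E for all explants. A D28 explant is as old as a 36.5 dpp testis, and D6, D16 and D22 match 14.5, 24.5 and 30.5 dpp in the same way. Each group had 3 libraries except 14.5 dpp, which had 2, because a further library that the labels mark as an outlier is listed at 0 for all 17322 genes and was left out. A cultured library was a pool of explants from several young males, with the necrotic centre cut away before extraction, and the p-values below measure only the spread between these samples.

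Interferons are cytokines that cells release after sensing foreign or misplaced nucleic acids. Type I interferons bind the receptor made of Ifnar1 and Ifnar2, and the kinases Jak1 and Tyk2 then activate transcription factors, among them Stat2, which joins Irf9 and switches on genes that carry an interferon-stimulated response element. Interferon gamma acts through another receptor and on genes that carry gamma-activated sites. The products fall into a few roles. Irf7 is a transcription factor that amplifies interferon production, Oas1a and Oas1b belong to the family of 2'-5' oligoadenylate synthetases that sense double-stranded RNA, and Mx1, Mx2, Ifit3 and Rsad2 (viperin) interfere with viral replication. Isg15 is a ubiquitin-like modifier, and Ifi27l2b belongs to the Ifi27 family of interferon-induced membrane proteins.

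RefSeq promoter windows (build GRCr8, from 250 bases before to 50 after the start of the gene) were found for 6 of the 9 genes: Irf7, Oas1a, Oas1b, Mx1, Ifit3 and Rsad2. Mx2, Isg15 and Ifi27l2b have none in the table. The letters GAAA, any 2 bases and GAAA again, which form the core of an interferon-stimulated response element, were searched on both strands and stood in 5 of these 6 windows, all but that of Mx1. They stood in 3.92% of all 33469 windows and in 33 of the 87 windows found for the other interferon system genes listed below. The letters TTCNNNGAA of a gamma-activated site, which read the same on both strands, stood in the windows of Oas1a and Oas1b and in 8.87% of all windows. The 160 bases before the start are shown for 4 genes, because they let the position of the response element be compared between genes that rose together in late culture. Capitals mark the matches to this element or its complement.
Irf7: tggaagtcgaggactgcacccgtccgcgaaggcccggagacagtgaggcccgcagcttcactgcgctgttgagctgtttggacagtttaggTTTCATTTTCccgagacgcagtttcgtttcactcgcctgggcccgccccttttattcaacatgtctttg
Ifit3: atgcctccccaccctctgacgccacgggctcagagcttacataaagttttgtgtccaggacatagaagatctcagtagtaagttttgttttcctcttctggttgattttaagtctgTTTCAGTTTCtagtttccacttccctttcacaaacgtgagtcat
Oas1a: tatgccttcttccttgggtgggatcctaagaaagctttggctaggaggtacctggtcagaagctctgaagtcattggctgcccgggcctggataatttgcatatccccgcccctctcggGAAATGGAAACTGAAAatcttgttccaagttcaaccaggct
Oas1b: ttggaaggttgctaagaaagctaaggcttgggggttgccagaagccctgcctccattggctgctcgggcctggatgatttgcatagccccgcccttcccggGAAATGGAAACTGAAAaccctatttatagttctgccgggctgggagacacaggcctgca
In GRCr8 these stretches are chr1:205800024-205800183 (minus strand) for Irf7, chr1:241527166-241527325 (plus strand) for Ifit3, chr12:41330306-41330465 (plus strand) for Oas1a and chr12:41395853-41396012 (minus strand) for Oas1b. The match began 69 bases before the start in Irf7 and 44 bases before it in Ifit3, both as the complement. Oas1a and Oas1b each hold a pair of overlapping matches in the same letters, beginning 41 and 35 bases before the start in Oas1a and 59 and 53 bases before it in Oas1b. In Rsad2 the complement TTTCATTTTC began 147 bases before the start. A match is a run of letters, and binding was not measured.

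Values are in FPKM, mapped fragments scaled to the length of the gene and the size of the library, so levels can be compared between genes per length. Between 12520 and 13563 genes per library were above 0, and replicates correlated across genes with Pearson's r from 0.965 to 0.985. Read counts were not used here and the depth of each library is unknown. The spacing of the lowest values gave a depth between 0.889 and 1.31 times that of an 8.5 dpp library for the 21 libraries in which it could be read. A listed 0 can be a failed estimate: of the 5721 genes whose median reached 10 FPKM, 77 are listed at 0 in at least 1 library, among them Gapdh in 1 library. Oas1a and Oas1b, and likewise Mx1 and Mx2, are close relatives, so the split of short reads between them is uncertain. Differences were fitted by limma on log2(FPKM + 1), and a call needed both an adjusted p (Benjamini-Hochberg) not above 0.05 and medians that differed at least 2 times between the groups. Genes whose median stayed under 0.5 FPKM in every compared group were not tested. In whole tissue, fewer cells of a type and less RNA per cell cannot be told apart.

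In the maturing testis, most of these genes fell. Of the 8 that could be tested from 8.5 to 53.5 dpp, 7 were called lower and Ifit3 was called higher, in a comparison in which 73.9% of 12531 genes were called (23.7% higher and 50.2% lower). The filter took all in vivo ages together. Rsad2 passed it only through 14.5 dpp and Ifit3 only through 36.5 dpp. The medians of both were under 0.5 FPKM at 8.5 and at 53.5 dpp. At the ages between, 1 of the 8 was called lower at 14.5 dpp (6.32% of all genes), 4 at 24.5 dpp (23.8%), 6 at 30.5 dpp (38.2%) and 7 at 36.5 dpp (43.4%), while 45.3%, 63.3% and 68.7% of all genes were called in either direction at the last 3 of these ages. At 53.5 dpp the median difference of the 8 genes was -0.91 on the log2 scale, against -0.74 for all genes tested. That general fall depends on scaling: with libraries scaled by the median ratio of their genes, a setting added after seeing the data, 34.5% of genes were called higher and 33.9% lower, and 6 of these genes were called lower, since Rsad2 fell under the filter. Under median centring, which removes the shift of all genes, Irf7, Isg15 and Ifi27l2b were still called lower, Oas1a and Mx2 were lower but no longer called (-0.13 and -0.10), and Oas1b and Rsad2 turned to higher (0.14 and 0.42). The sign for Oas1b and Rsad2 at 53.5 dpp thus changed where a shift was subtracted on the log2(FPKM + 1) scale. Both genes lay under 1 FPKM, where the pseudocount of 1 keeps differences on this scale small. Their mean FPKM at 53.5 dpp was 0.0763 (Oas1b) and 0.22 (Rsad2) times that at 8.5 dpp.

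Irf7 stood at 2.17, 2.45 and 2.60 FPKM at 8.5 dpp and at 0.351, 0.261 and 0.256 FPKM at 53.5 dpp. It was called lower from 24.5 dpp on, with a log2 difference from 8.5 dpp of -1.10 at 24.5 dpp (SE 0.13, limma adjusted p = 3.3e-06) and -1.40 at 53.5 dpp (SE 0.13, limma adjusted p = 9.5e-08). Isg15 had 3.76, 3.88 and 3.13 FPKM at 8.5 dpp and 0.361, 0.385 and 0.756 at 53.5 dpp, a log2 difference of -1.62 (SE 0.24, limma adjusted p = 1.6e-05). Both genes thus had non-overlapping libraries at the youngest and the oldest age. So did most of the 12089 genes past the filter, with 60.4% lower and 29.6% higher without overlap. Ifi27l2b was at 4.47, 4.17 and 4.30 FPKM at 8.5 dpp, at 0 and 1.56 at 14.5 dpp, and is listed at 0 in each of the 12 libraries from 24.5 to 53.5 dpp. It was called lower already at 14.5 dpp (limma adjusted p = 0.00011). The fit pooled the spread over all in vivo ages, including the 12 libraries listed at 0. This p-value therefore does not measure the spread of the 2 libraries at 14.5 dpp, whose SD on the log2 scale was 0.96.

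Oas1a, Oas1b, Mx2 and Rsad2 followed another course, with their highest in vivo mean at 14.5 dpp. Oas1a rose from 0.800, 0.963 and 1.5 FPKM at 8.5 dpp to 1.61 and 2.45 at 14.5 dpp, a log2 difference of 0.54 (SE 0.17, limma adjusted p = 0.024) that passed the test, in a comparison in which 14.7% of genes were called. Its libraries lay between 0 and 0.290 FPKM from 30.5 dpp on. Mx2 stood at 1.04, 1.39 and 1.04 FPKM at 8.5 dpp, at 1.78 and 2.04 at 14.5 dpp and at 0.201, 0.111 and 0.154 at 53.5 dpp. The difference of Mx2 at 14.5 dpp (0.44, SE 0.14, limma adjusted p = 0.023) missed the required ratio of medians, and that at 53.5 dpp was -0.90 (SE 0.12, limma adjusted p = 7.2e-06). Oas1b had 0.581, 0.744 and 0.648 FPKM at 8.5 dpp, 1.09 and 0.813 at 14.5 dpp and 0.0508, 0.0481 and 0.0517 at 53.5 dpp. Rsad2 had 0.523, 0.370 and 0.372 FPKM at 8.5 dpp and 0.116, 0.0634 and 0.0999 at 53.5 dpp. All libraries of both genes were lower at 53.5 dpp than at 8.5 dpp, with the change of sign under median centring given above. This held for 60.4% of the 12089 genes past the filter for this pair of ages.

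Ifit3, whose product is an RNA-binding antiviral protein, was the exception. It had 0.148, 0.311 and 0.186 FPKM at 8.5 dpp, between 0 and 0.0999 at 24.5 dpp, 0.700, 0.565 and 0.956 at 36.5 dpp and 0.442, 0.479 and 0.795 at 53.5 dpp. It was called higher than at 8.5 dpp at 36.5 dpp (0.51, SE 0.11, limma adjusted p = 0.00063) and at 53.5 dpp (0.37, SE 0.11, limma adjusted p = 0.0071), and the latter call was lost without 8.5 dpp replicate 1 (0.33). Ifit3 passed the filter only through 36.5 dpp, the age at which it was highest, so the call at that age could only be higher. Mx1 stayed at or below 0.326 FPKM in every in vivo library, under the filter, and was not tested there. Its 3 libraries at 53.5 dpp (0.172, 0.228 and 0.217 FPKM) all lay above those at 8.5 dpp (0, 0.0806 and 0.108 FPKM).

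**Figure D1:**
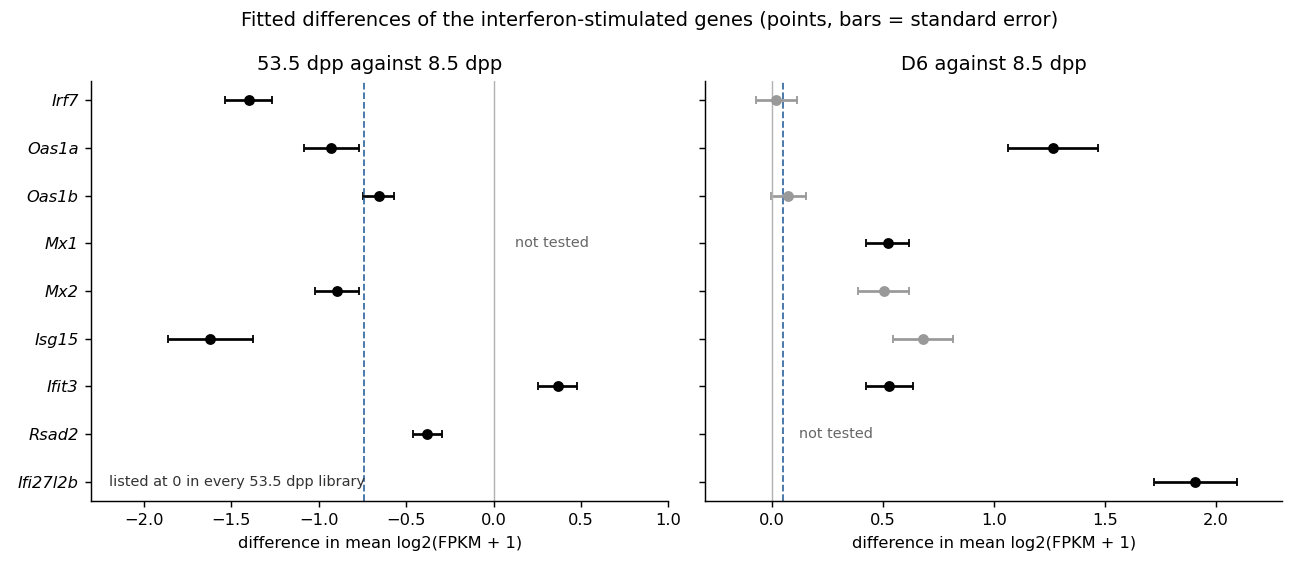
Fitted difference in mean log2(FPKM + 1) of the 8 genes tested at 53.5 dpp (left) and at D6 (right) against 8.5 dpp, with bars of 1 standard error. Black points passed the test, grey points did not, and the dashed line is the median of all genes tested (-0.74 on the left, 0.05 on the right). Mx1 on the left and Rsad2 on the right were under the filter and have no point. Ifi27l2b, listed at 0 in every 53.5 dpp library, has words in place of a point on the left. Of the genes tested, Ifit3 alone lies to the right of 0 on the left, and 4 genes passed the test on the right.

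The first 6 days of culture already set some of these genes apart from the 8.5 dpp testes they came from, while others were not called. Of the 8 genes tested at D6 against 8.5 dpp, 4 were called higher (Ifi27l2b, Oas1a, Ifit3 and Mx1) and none was called lower. By limma, 6 were higher and 0 lower at an unadjusted p under 0.05. Ifit3 and Mx1 passed the filter only through D6, where they were higher, so a call for them could only be higher. Of all 11216 genes tested, 16.3% were called, with 9.89% higher and 6.39% lower. The median difference was 0.53 for these genes and 0.05 for all genes. The D6 libraries are shared with the later comparison in culture.

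Ifi27l2b went from 4.47, 4.17 and 4.30 FPKM at 8.5 dpp to 17.4, 14.9 and 26.1 at D6, a log2 difference of 1.91 (SE 0.19, limma adjusted p = 0.00028). Oas1a went from 0.800, 0.963 and 1.5 to 4.04, 2.86 and 5.31 FPKM, a log2 difference of 1.27 (SE 0.20, limma adjusted p = 0.0023). Every D6 library was above every 8.5 dpp library for both genes. Ifit3 reached 0.633, 0.974 and 0.661 FPKM at D6 (0.53, SE 0.11, limma adjusted p = 0.0062). Mx1 reached 0.527, 0.662 and 0.396 FPKM, from 0, 0.0806 and 0.108 at 8.5 dpp (limma adjusted p = 0.0043), and fell under the filter without D6 replicate 2. Both levels were low, and with a minimum median of 1 FPKM neither Ifit3 nor Mx1 could be tested, which left 2 genes called higher. In all, 6 of the 9 genes had every D6 library above every 8.5 dpp library, as did 33.0% of all genes. Isg15 and Mx2 were among them, with log2 differences of 0.68 (SE 0.14, limma adjusted p = 0.0061) and 0.50 (SE 0.11, limma adjusted p = 0.01), but missed the required ratio of medians. Mx2 was called without D6 replicate 1 (0.54) or without D6 replicate 3 (0.56).

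Irf7 and Oas1b, by contrast, had values at D6 that overlapped those at 8.5 dpp. Irf7 stood at 2.61, 2.20 and 2.56 FPKM at D6, a difference of 0.02 (SE 0.09, limma adjusted p = 0.87), and Oas1b at 0.734, 0.730 and 0.767 FPKM, a difference of 0.07 (SE 0.08, limma adjusted p = 0.47). Their direction at D6 changed with scaling, from 0.02 to -0.09 for Irf7 and from 0.07 to -0.03 for Oas1b under quantile normalization. Rsad2 had 0.421, 0.733 and 0.452 FPKM at D6, was under the filter and was not tested.

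**Figure D2:**
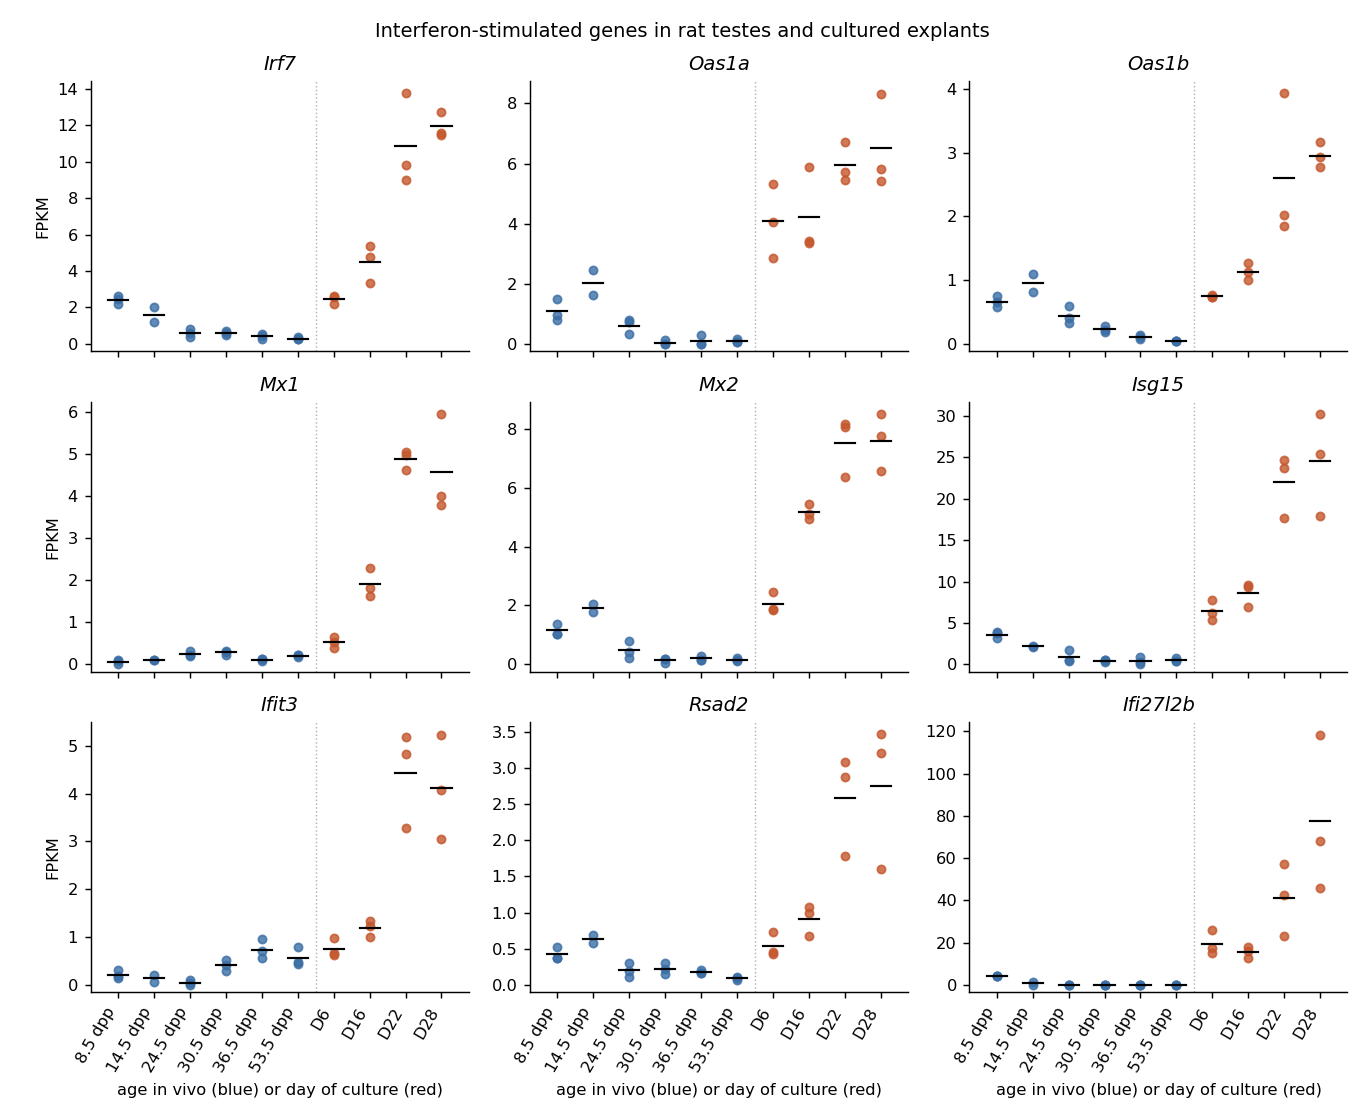
FPKM of each gene in every library, in vivo (blue, 8.5 to 53.5 dpp) and in culture (red, D6 to D28), with 1 panel per gene and its own linear axis. Points are libraries and the black line is the mean of the group. In each panel every D28 library lies above every D6 library, and Ifi27l2b has the widest spread at D28 (45.9 to 118 FPKM).

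From D6 to D28 all 9 genes became higher, with no overlap between the 3 libraries of each group. This is what the genes were chosen for, and the count is a description only. For comparison, 15.9% of the 11211 genes past the filter had every D28 library above every D6 library. Against D6, 5 of the 9 genes were already higher in this way at D16 (19.9% of all genes) and 8 at D22 (19.8%). The median of the 9 differences between D28 and D6 was 1.53 on the log2 scale, with a range from 0.58 for Oas1a to 1.90 for Irf7, and the median of all genes was -0.04. Against 14.5 dpp the D28 libraries of all 9 genes were also higher, which held for 24.0% of the 11404 genes past that filter. At D16 this was so for 7 genes, with 27.1% of all genes higher and 34.4% lower.

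The transcription factor gene Irf7 had 3.34, 4.79 and 5.36 FPKM at D16, 8.99, 9.80 and 13.8 at D22 and 11.5, 12.8 and 11.6 at D28. Its mean at D28 (11.9 ± 0.71, SD, n = 3) was 4.86 times that at D6 (2.46 ± 0.22, SD, n = 3). The libraries of D16 lay above those of D6 and below those of D22, while D22 and D28 overlapped. Most of the difference seen at D28 was present at D22 (92.3% on the log2 scale), against 34.2% at D16.

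The antiviral effectors Mx1 and Mx2 had a larger share of their difference early. Mx1 had 1.62, 1.81 and 2.29 FPKM at D16, 4.62, 5.05 and 4.97 at D22 and 3.99, 5.95 and 3.78 at D28. The ratio of its D28 to its D6 mean was 8.66, the highest of the 9 genes. Mx2 had 4.94, 5.11 and 5.45 FPKM at D16, 6.36, 8.05 and 8.15 at D22 and 7.74, 8.50 and 6.55 at D28. On the log2 scale, 68.2% of the D28 difference of Mx2 and 49.9% of that of Mx1 was present at D16, more than for the other 7 genes (at most 34.2%).

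For Ifit3 and Rsad2 the largest step after D6 lay between D16 and D22, as for all of the 9 genes but Mx2. Ifit3 had 1.01, 1.22 and 1.35 FPKM at D16, 5.18, 3.27 and 4.82 at D22 and 4.07, 5.23 and 3.05 at D28. Rsad2 had 0.673, 0.998 and 1.07 FPKM at D16, 3.08, 1.78 and 2.88 at D22 and 3.46, 3.21 and 1.60 at D28. D22 and D28 overlapped for both genes, and every D22 library was above every D16 library. Isg15, the modifier, followed the same course at a higher level, with 6.92, 9.37 and 9.54 FPKM at D16, 24.7, 17.6 and 23.8 at D22 and 30.2, 25.4 and 17.9 at D28. Its D16 libraries overlapped those of D6 (5.33, 6.16 and 7.72 FPKM).

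The oligoadenylate synthetase genes differed from each other. Oas1a, which was already raised at D6, changed least of the 9 genes afterwards. Its libraries had 3.42, 3.34 and 5.89 FPKM at D16, 6.71, 5.73 and 5.45 at D22 and 8.33, 5.83 and 5.43 at D28, where the lowest lay just above the highest D6 library (5.31 FPKM). Oas1b, whose D6 libraries overlapped those at 8.5 dpp, had 1.12, 1.27 and 1.0 FPKM at D16, 1.85, 2.02 and 3.93 at D22 and 2.77, 3.17 and 2.93 at D28. The ratio of D28 to D6 means was 1.60 for Oas1a and 3.97 for Oas1b. Whether these courses differ was not tested, since late values chose the genes.

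Ifi27l2b, the most abundant of the 9 genes in culture, showed the widest spread. Its D16 libraries (12.6, 15.8 and 17.8 FPKM) overlapped those of D6, and so did those of D22 (57.2, 23.4 and 42.4 FPKM). At D28 they stood at 118, 45.9 and 67.9 FPKM, a mean of 77.4 ± 37.2 (SD, n = 3) that was 3.98 times the D6 mean (19.5 ± 5.87, SD, n = 3). Only 52.7% of the D28 difference on the log2 scale was present at D22, the lowest share of the 9 genes. From D22 to D28 the libraries of all 9 genes overlapped, where 5.17% of all genes were higher and 6.03% lower without overlap.

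Ranked by mean FPKM over the 10 groups, D28 came first for 7 genes, and D22 came first for Mx1 and Ifit3. The libraries of the first and second group overlapped for each of the 9 genes. D16 and then D6 followed for 6 genes, namely Irf7, Oas1a, Mx1, Mx2, Isg15 and Ifit3. For Oas1b and Rsad2 the 14.5 dpp testes came between D16 and D6, and for Ifi27l2b D6 came before D16. Of the 9 steps between neighbouring groups, the libraries overlapped at 4 for Oas1b, at 5 for Irf7, Oas1a, Mx1, Mx2 and Isg15, at 6 for Rsad2 and at 7 for Ifit3 and Ifi27l2b, the last of which is listed at 0 in the 4 oldest groups. The 53.5 dpp testes were last for Irf7, Oas1b and Rsad2.

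Cultured tissues were set beside testes of the same age. At D6 against 14.5 dpp, the libraries were higher for 6 genes, lower for Oas1b (0.734, 0.730 and 0.767 against 1.09 and 0.813 FPKM) and overlapping for Mx2 and Rsad2. Of 11309 genes past the filter, 23.8% were higher and 28.8% lower in this way. From D16 on, every cultured library of all 9 genes was above every testis of the matching age, which held for 42.9% (D16), 55.2% (D22) and 56.8% (D28) of the genes past the filter. At D28 and 36.5 dpp, the means were 11.9 and 0.412 FPKM for Irf7, 2.95 and 0.109 for Oas1b and 7.60 and 0.205 for Mx2. For Ifit3 they were 4.12 and 0.740 FPKM, a ratio of 5.56 and the smallest of the 6 genes whose libraries were all above 0. Ifi27l2b is listed at 0 in each 36.5 dpp testis. The median difference between the age-matched groups over the 9 genes was 0.47 for D6, then 1.68 for D16, 2.74 for D22 and 2.77 for D28. The median over all genes grew as well, from -0.04 for D6 to 0.12 for D16, 0.51 for D22 and 0.65 for D28.

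The ligands, receptors and other target genes of the interferon system were followed in a list of 128 further genes, of which 104 have a row. Of the 13 interferon genes listed, 6 have a row, and their level was close to 0. Ifng, which encodes interferon gamma, is listed at 0 in all 29 libraries, and Ifnk and Ifna5 are listed at 0 in all 12 cultured libraries. Ifnb1 was above 0 in 1 cultured library (0.066 FPKM), Ifna2 in 1 (0.0079 FPKM) and Ifna4 in 2 (at most 0.0528 FPKM). The highest value of any ligand gene was 0.633 FPKM, for Ifnk in a 36.5 dpp testis. No read counts stand behind these values, so the limit of detection is unknown.

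Of the 6 receptor genes listed, 5 have a row, and Ifnar2 was not analysed here. Ifnar1 had means from 25.8 to 27.2 FPKM in culture and 30.3 FPKM at 8.5 dpp, and its difference between D28 and D6 was 0.01 (SE 0.07, limma adjusted p = 0.93). None of the 5 receptor genes was called at D28 against D6 by limma, where 3 were higher and 0 lower at an unadjusted p under 0.05. Among the 11 tested genes of kinases, STATs and interferon regulatory factors, 0 were called at D28 against D6, with 3 higher and 1 lower at an unadjusted p under 0.05. Irf9, the DNA-binding partner of Stat2, had the largest of these differences, from a mean of 12.3 FPKM at D6 to 21.8 at D28 (0.77, SE 0.09, limma adjusted p = 0.00026), short of the required ratio. It had been called higher at D6 than at 8.5 dpp (1.24, SE 0.09, limma adjusted p = 9.0e-05). Stat2 was also called higher at D6 than at 8.5 dpp (0.87, SE 0.08, limma adjusted p = 0.00024).

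Most genes of the list were not called in late culture. At D28 against D6, 8 of the 85 tested genes were called higher, 3 lower and 74 in neither direction, where 5.69% of 11358 genes were called (3.04% higher and 2.65% lower). The median of the list was 0.17 and that of all genes -0.04. At D16 against D6, 0 were called higher by limma (12 at an unadjusted p under 0.05) and 3 lower, namely the chemokine genes Cxcl10 (-2.03), Cxcl11 (-1.30) and Cxcl9 (-0.80), where 1.69% of all genes were lower. At D22, 5 were called higher and 3 lower, in a comparison in which 4.81% of genes were called (2.67% higher and 2.14% lower).

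The genes that rose by D28 were Rtp4, which encodes a chaperone of receptors, Usp18, the protease that removes Isg15, Isg20, an exonuclease, the synthetase relatives Oasl2 and Oasl, the guanylate-binding Gbp4, the RNA sensor gene Rig1 (formerly Ddx58), and Uba7, the enzyme that activates Isg15. Oasl and Uba7 lie outside the 6 largest differences and were named after their values were seen. Usp18 went from a mean of 0.319 FPKM at D6 to 2.18 at D28 (1.25, SE 0.17, limma adjusted p = 0.00051). Rtp4 went from 5.24 to 14.2 FPKM (1.29, SE 0.17, limma adjusted p = 0.00049) and Oasl2 from 1.38 to 3.95 FPKM (1.06, SE 0.13, limma adjusted p = 0.00032). Rig1 had the smallest log2 difference of the 6 largest (0.58, SE 0.09, limma adjusted p = 0.0014) and lost its call without D28 replicate 1 or 2 and in the fit of all 10 groups. Both Usp18 and Uba7 act on the Isg15 modification, and 2 of the 4 tested genes of this group were called higher at D28 than at D6. Ube2l6 and Trim25 of this group were not called. Uba7 had been called lower at D6 than at 8.5 dpp. Its D28 libraries (0.926 to 1.33 FPKM) overlapped those at 8.5 dpp (0.941 to 1.38 FPKM). Those of Usp18 at D28 (1.77 to 2.98 FPKM) all lay above those at 8.5 dpp (0.117 to 0.389 FPKM).

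The 3 genes called lower at D28, a share of 3.53% of the list against 2.65% of all genes, were the chemokine genes Cxcl10 and Cxcl11 and the feedback inhibitor Socs1. Cxcl10 had risen from a mean of 2.12 FPKM at 8.5 dpp to 39.6 at D6 (3.69, SE 0.17, limma adjusted p = 1.9e-05) and stood at 11.6 FPKM at D28, a difference from D6 of -1.67 (SE 0.18, limma adjusted p = 0.00014). Cxcl11 went from 0.249 FPKM at 8.5 dpp to 3.10 at D6 and 1.02 at D28. Socs1 went from 17.1 to 8.99 FPKM between D6 and D28 (-0.90, SE 0.19, limma adjusted p = 0.0075), and this call was lost without D6 replicate 3 or without D28 replicate 2 or 3. At D6 against 8.5 dpp, 17 of 82 tested genes of the list were called higher (20.7%, against 9.89% of all genes) and 5 lower (6.1%, against 6.39% of all genes). Socs3 (2.61), Gbp5 (2.00), Ifi47 (1.89) and Slfn2 (1.28) had the largest rises after Cxcl10, together with Cxcl11 (1.70). The 5 lower genes, a share near that of all genes, were Slfn9 (-1.28), Ifitm2 (-1.18), Sp110 (-1.06), Sp100 (-0.65) and Uba7 (-0.59).

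**Figure D3:**
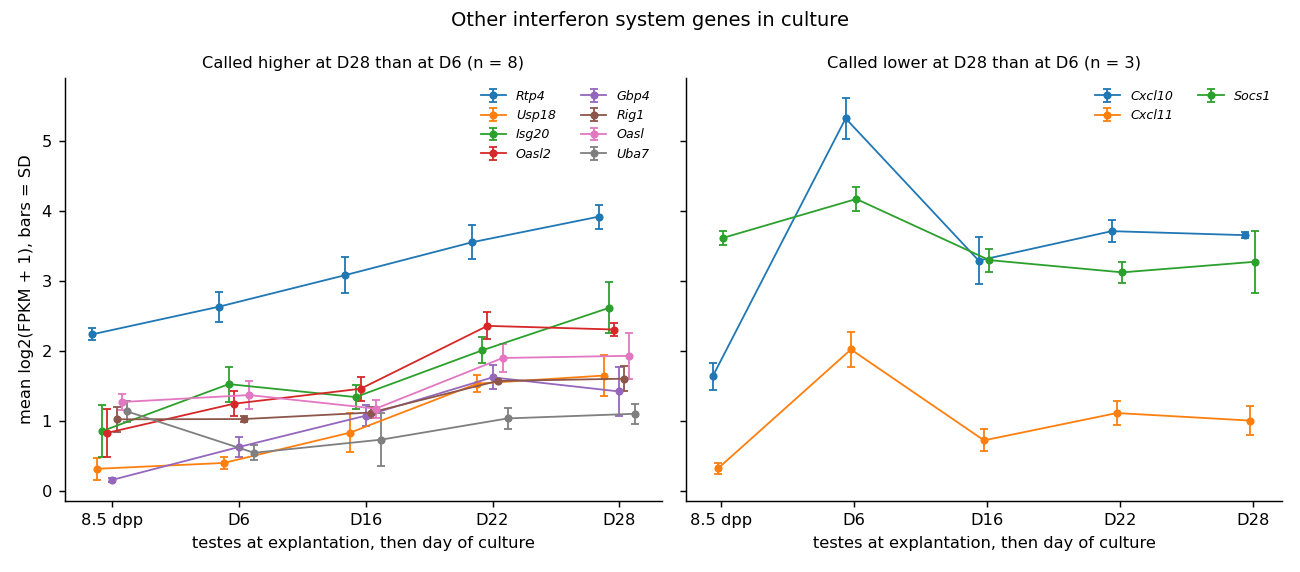
Mean log2(FPKM + 1) of the 8 list genes called higher (left) and the 3 called lower (right) at D28 against D6, in 8.5 dpp testes and in culture, with bars of 1 SD (n = 3). Cxcl10 and Cxcl11 peak at D6, while Usp18 and Oasl2 are highest at D22 and D28.

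Against 14.5 dpp, 27 of the 85 tested genes of the list were called higher at D28 and 0 lower by limma (44 and 4 at an unadjusted p under 0.05), where 15.3% of 11517 genes were called (8.4% higher and 6.88% lower). Several genes of the list had been picked by the study on these same samples, so their direction here is not independent evidence. The median of the list was 0.39 and that of all genes -0.08. The largest differences were those of Rtp4 (2.5), Cxcl10 (2.19), Ifi47 (2.08), Isg20 (2.08), Socs3 (1.96) and Oasl2 (1.71). At D16, 19 were called higher and Cxcl9 was called lower (6.87% and 6.14% of all genes). At D22, 25 were called higher and 0 lower by limma (47 and 5 at an unadjusted p under 0.05), beside 7.76% and 5.99% of all genes. Cxcl10 and Socs3 thus remained above 14.5 dpp at D28 although Cxcl10 had fallen since D6.

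In vivo, most genes of the list were lower in the oldest testes. At 53.5 dpp 62 of 84 tested genes were called lower and 8 higher than at 8.5 dpp, where 50.2% of all genes were called lower and 23.7% higher, with a median of -1.85 against -0.74 for all genes. Under scaling by the median ratio, 51 were called lower, beside 33.9% of all genes. The largest falls were those of the tetherin gene Bst2 (-7.26), Ifitm2 (-6.93), Ifitm1 (-5.57), Irf1 (-4.68), Shisa5 (-4.46) and Ifitm3 (-4.40). Trim14 (4.51), Isg20 (3.19), Dhx58 (2.54), Pias1 (2.49), Cmpk2 (1.29) and Epsti1 (0.86) rose instead. The receptor gene Ifnar1 stayed at 29.7 FPKM at 53.5 dpp (-0.03, SE 0.11, limma adjusted p = 0.8), whereas the other 4 receptor genes were called lower.

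Markers of other cells that the explants could hold were measured beside these genes. The summed level of 16 macrophage and monocyte markers ranged from 151 to 178 FPKM at D6, from 169 to 181 at D16, from 151 to 221 at D22 and from 179 to 289 at D28. Of the 14 that could be tested at D28 against D6, 0 were called by limma, with 3 higher and 0 lower at an unadjusted p under 0.05. Every D28 library was above every D6 library for Lyz2 (63.3 to 80.8 against 40.4 to 52.8 FPKM) and Cd74 (13.7 to 26.45 against 6.0 to 10.2 FPKM). The same held for Mrc1 (7.95 to 9.62 against 6.06 to 7.36 FPKM), and for 15.9% of all genes. The other markers overlapped or were listed at 0. Csf1r, the receptor of macrophages, lay between 2.85 and 3.32 FPKM at D6 and between 2.51 and 4.39 at D28. Cd163 is listed at 0 in every cultured library. More of the macrophage and monocyte markers were called in the other comparisons. At D6 against 8.5 dpp, 5 of 14 were called higher, beside 9.89% of all genes. At D28 against 14.5 dpp, 7 of 14 were called higher, beside 8.4% of all genes, with 0 lower in either comparison. In vivo, the sum was 137 to 177 FPKM at 8.5 dpp and 243 to 278 at 53.5 dpp, where Aif1 alone had a mean of 213 FPKM. At 53.5 dpp 10 of 15 markers were called lower and 3 higher, beside 50.2% and 23.7% of all genes.

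The 15 T, B and NK cell markers fell in sum from a range of 33.8 to 36.6 FPKM at D6 to a range of 19.7 to 21.4 at D28, with Cd3d, Cd3g and Ms4a1 listed at 0 in both groups, and most of that fall lay in Cd8a, whose mean went from 24.2 FPKM at D6 to 9.94 at D28. Cd4 had means of 3.53 FPKM at D6 and 6.12 at D28 (0.65, SE 0.15, limma adjusted p = 0.0087), short of the required ratio. Of the 9 that could be tested, 6 were called higher at D6 against 8.5 dpp, beside 9.89% of all genes. At D28 against D6, 3 were called lower, beside 2.65% of all genes. Neutrophil markers summed to at most 1.36 FPKM in culture, with S100a8 listed at 0 throughout. Of the 4 plasmacytoid dendritic cell markers with a row, 3 could be tested at D28 against D6 and 0 were called by limma, with 0 higher and 1 lower at an unadjusted p under 0.05. Means at D6 and D28 were 402 and 454 FPKM for Bst2, which is itself an interferon-induced gene of the list, 6.96 and 8.16 for Il3ra and 3.01 and 1.97 for Tcf4, while Spib stayed at or below 0.139 FPKM in culture. Endothelial markers summed to between 69.4 and 78.5 FPKM at D6 and between 51.1 and 81.2 at D28. Sertoli cell markers summed to between 2340 and 2740 FPKM at D6 and between 4940 and 6010 at D28, but only Clu (2.62) and Cldn11 (1.36) of the 10 markers were called, and the median difference of the 10 was 0.05. Peritubular myoid cell markers were lower in sum at D28 (105 to 138 FPKM) than at D6 (196 to 380 FPKM). Premeiotic germ cell markers ranged from 411 to 428 FPKM at D6 and from 326 to 380 at D28. Leydig cell markers summed to medians of 116 FPKM at D6 and 115 at D28, most of it from Nr5a1, with means of 106 and 92.8 FPKM. Of the 7 Leydig markers, 1 was called higher and 0 lower at D28 against D6 by limma, where 3.04% of all genes were called higher. At an unadjusted p under 0.05 by limma, 4 were higher and 1 lower. Meiotic and haploid germ cell markers summed to at most 25.2 FPKM in culture, against 18300 to 23700 at 53.5 dpp. The part of these cell types in the rise of the 9 genes was not tested.

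**Figure D4:**
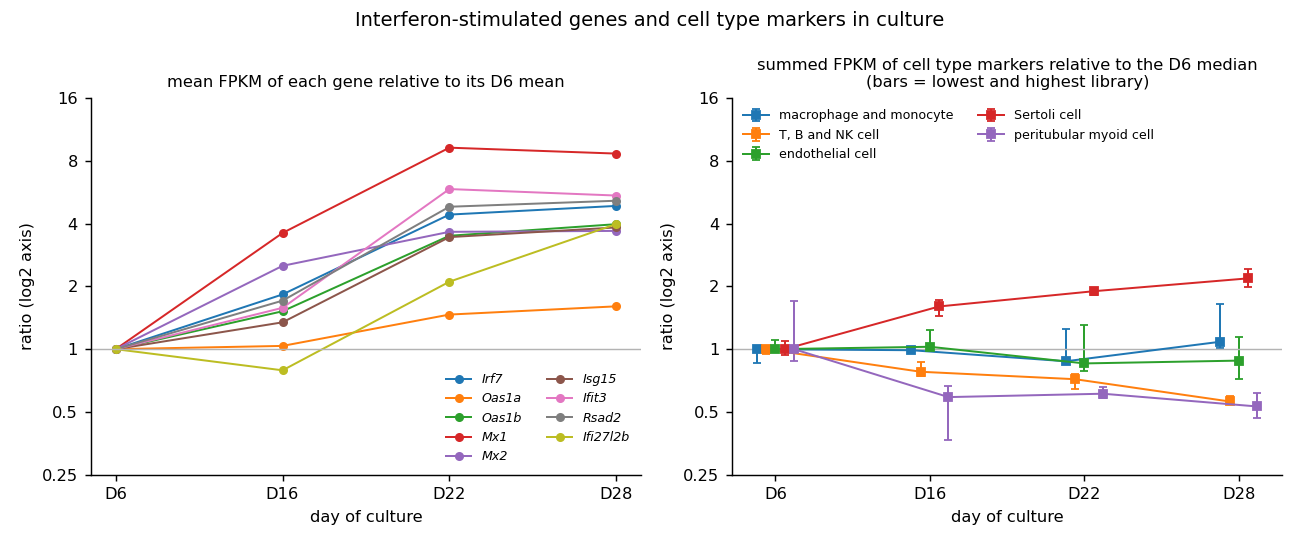
Left, mean FPKM of each of the 9 genes in culture as a ratio to its D6 mean; right, summed FPKM of cell type markers as a ratio to the D6 median, with bars from the lowest to the highest library. Both ratio axes are on a log2 scale. At D28 the genes stand between 1.60 (Oas1a) and 8.66 (Mx1), while the macrophage markers range from 179 to 289 FPKM in sum, against 151 to 178 at D6.

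The 9 genes varied together over the 29 libraries. These include the late cultures on which the genes were chosen, so a shared course was partly built in. The Pearson correlation of each gene with the mean of the other 8 was highest for Irf7 (0.979) and Isg15 (0.975) and lowest for Ifit3 (0.857). Among 12753 other genes, those most like the mean profile of the 9 genes were Oasl2 (0.983), the MHC class I gene RT1-S3 (0.970), the leukocyte actin-bundling gene Lcp1 (0.965), Apol9a (0.963), Unc5cl (0.959), Epha1 (0.959), Trex2 (0.958), Rtp4 (0.957), Fgf7 (0.953) and Plvap (0.952). Lcp1 had a mean of 7.40 FPKM at 8.5 dpp, 2.80 at 36.5 dpp, 16.2 at D6 and 42.3 at D28. RT1-S3, whose reads are uncertain because MHC class I genes are near copies of each other, had 5.13 FPKM at D6 and 17.3 at D28. Libraries of a group share their condition, and the young testes, old testes and cultures form separate groups, so these values are a description. Over the means of the 10 groups, 5 of these 10 genes were still among the first 10, and by Spearman's rho 0 were.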

How the data were processed

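RNA was sequenced from 30 libraries as stranded poly(A) reads. The authors aligned the reads to the rat genome build rn6 with STAR 2.5.2a (per the labels, with bcl2fastq 2.17.1.14) and deposited 1 table of FPKM per gene, made with StringTie and Ballgown. FPKM are scaled for gene length and library size, so counts and depth cannot be read from them directly. RefSeq gene symbols were found for 17172 of 17322 identifiers. The 9 genes and all lists were chosen with earlier results of these data known. In 29 libraries of 10 groups, limma 3.58.1 (R 4.3.3) was fitted to log2(FPKM + 1), with a pseudocount of 1, separately to the in vivo ages, to D6 and 8.5 dpp, to the culture times, and to 14.5 dpp with late culture. Genes had a median of at least 0.5 FPKM in a compared group, and calls needed an adjusted p of at most 0.05 and a ratio of medians of at least 2. The 9 genes were not tested in late culture. Named were all 9 genes, the ligands, receptors and signalling genes, the 6 called list genes with the largest change in each direction, and the 10 genes of most similar profile. The fit was tested on simulated data. Other pseudocounts, filters, scalings, thresholds and fits were tried, and each library was left out in turn. Promoter windows came from RefSeq (GRCr8), a later build than that of the FPKM. Python 3.11.15 was used for the descriptions.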

Additional observations from a re-analysis of the deposited data

Results flagged for a closer look

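For 6 of the 9 genes, culture and maturation in the animal went opposite ways over the same span of ages: every D28 library was above every D6 library, while every 36.5 dpp testis was below every 14.5 dpp testis. The change in culture minus the change in vivo, on the log2(FPKM + 1) scale, was 3.02 for Isg15, 2.77 for Irf7, 2.76 for Mx2, 2.04 for Oas1a, 1.99 for Oas1b and 1.73 for Rsad2. The genes were chosen for their rise in culture, and the difference was not tested. Among all genes past the filter, 15.9% were higher in every D28 than in every D6 library and 59.3% were lower in every 36.5 dpp than in every 14.5 dpp testis. The fall of 6 of the 9 genes in vivo is near that general share. The share of all genes that met both conditions was not counted. The median of all genes between 14.5 and 36.5 dpp was -0.68, and the difference of Rsad2 was -0.47. Rsad2 lay under 1 FPKM, where the pseudocount of 1 keeps differences small, so these values do not show that it fell less. Its mean FPKM at 36.5 dpp was 0.279 times that at 14.5 dpp. The general fall in vivo depends on the scaling of the libraries: at 36.5 dpp against 8.5 dpp, 43.4% of genes were called lower and 25.3% higher, against 32.4% and 32.7% under scaling by the median ratio.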

How the results depend on the processing

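With median-centred libraries, 3 in place of 7 of the genes were called lower at 53.5 dpp, where Oas1b (0.143) and Rsad2 (0.422) changed sign. At D6, a minimum median of 1 FPKM left 2 genes called higher in place of 4, and Irf7 changed sign under median centring (-0.0474), quantile normalization (-0.0856), scaling by the median ratio (-0.0133) and without 8.5 dpp replicate 1 (-0.0308), D6 replicate 1 (-0.0121) or D6 replicate 3 (-0.000724), in a range from -0.0308 to 0.0745 over the libraries left out, as did Oas1b under quantile normalization (-0.0304). Without the fold threshold, 20 list genes were called higher at D28 against D6 in place of 8, and 35 higher and 13 lower at D6 against 8.5 dpp in place of 17 and 5. The median difference of the 9 genes between D28 and D6 was 1.92 with a pseudocount of 0.1 and 1.84 with 0.5, in place of 1.53. Of the 10 most similar genes, 0 were shared by Spearman's rho and 5 by group means. Apart from the settings named, the cause of these changes was not tested. Leaving out 1 library gave 7 genes lower at 53.5 dpp each time, 3 to 5 higher at D6, 6 to 10 list genes higher and 2 to 3 lower at D28 against D6, 24 to 30 higher against 14.5 dpp, 15 to 18 higher and 4 to 6 lower at D6, 61 to 63 lower at 53.5 dpp, and a median difference from 1.41 to 1.68. The scalings to 1 sum and by the median ratio were chosen after seeing the data.

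Replicate numbers were not taken to pair the samples, since not every pair passed 0.1: deviations of same-numbered libraries correlated from -0.131 to 0.218 in the culture groups, with 5 of 18 pairs over 0.1. As a hint from the data, the library of the same number was the best match in 12 of these 18 pairs and in 11 of 15 in the fit with 14.5 dpp. With the replicate number as a block, 7 genes were lower at 53.5 dpp and 4 higher at D6, and the list gave 7 higher and 3 lower at D28 against D6, 26 higher against 14.5 dpp, 16 higher and 5 lower at D6 and 62 lower at 53.5 dpp. Low levels limit Mx1, Ifit3, Rsad2 and Usp18 most, and the unknown depth gives no floor for values listed at 0.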
